A study of Mus musculus with 12 samples.

Results

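The genes described here act in mitosis, from entry into M phase through assembly of the spindle to the physical separation of the daughter cells. They were chosen from a fixed list of 40 mouse genes by their Ensembl identifiers, of which 39 had a row among the 22309 rows of the array table. Ccnb1, the gene of cyclin B1, was without a row and was not analysed here. Gene symbols came from that list, because the table itself carried identifiers only. Livers with adenoviral overexpression of ChREBP (6 livers) were set against livers that overexpressed the fluorescent protein GFP (6 livers), all from C57BL/6J males for which the labels give an age of 10 weeks. By the methods GFP livers had received a virus too, with the tail vein given as the route in one place and the penis vein in another. The methods also give an age at injection and a time of weeks until the mice were studied. Together these exceed the age on the labels. Mice that failed to overexpress the protein were removed, and neither randomization nor blinding was used. The promoter of the vectors was not given in the sources used here. Each liver came from a separate mouse and was hybridised to its own array, and values are log2 expression levels normalized by the authors.

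ChREBP is a transcription factor that binds carbohydrate response elements and controls genes of glucose and lipid metabolism. In the adult liver most hepatocytes rest outside the cell cycle, and the genes of mitosis are expressed mainly in dividing cells. Cells enter M phase when Cdk1 is activated by its cyclins, the kinetochores then attach chromosomes to spindle fibres under the control of the spindle checkpoint, and the anaphase promoting complex (APC/C) triggers chromosome separation by marking cyclins and securin for breakdown. Many of these genes share promoter elements through which they are switched on together late in the cycle.

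All 39 measured genes rose in ChREBP livers. The median change was 1.32 on the log2 scale, or 2.50-fold, and single genes lay between 0.42 (Melk, 1.34-fold) and 2.06 (Top2a, 4.16-fold). Over all 22309 rows the median change was -0.05. In limma, with Benjamini-Hochberg adjustment over all rows and a threshold of 0.05, 39 of 39 genes were higher, against 12.2% of all rows. None of the 39 was lower, against 14.0% of all rows, and the count of lower genes was 0 also at an unadjusted p under 0.05 and by the methods' test. The adjusted p ranged from 4.01e-08 for Top2a to 0.000499 for Cdca8. A rise of at least 1.5-fold was found for 35 of the 39 genes (89.7%) and for 3.73% of all rows. At least 2-fold rises were found for 25 genes (1.58% of all rows) and at least 3-fold rises for 11 (0.623% of all rows). For 39 of 39 genes every ChREBP liver lay above every GFP liver, as in 7.68% of all rows, and for 0 genes every ChREBP liver lay below every GFP liver, as in 6.72% of all rows. When all rows were ordered by their change, 31 of the genes were among the 500 with the largest rise, with Top2a at place 81 and Melk at place 1412. In whole liver, more dividing cells and more mitotic RNA per cell cannot be told apart.

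**Figure D1:**
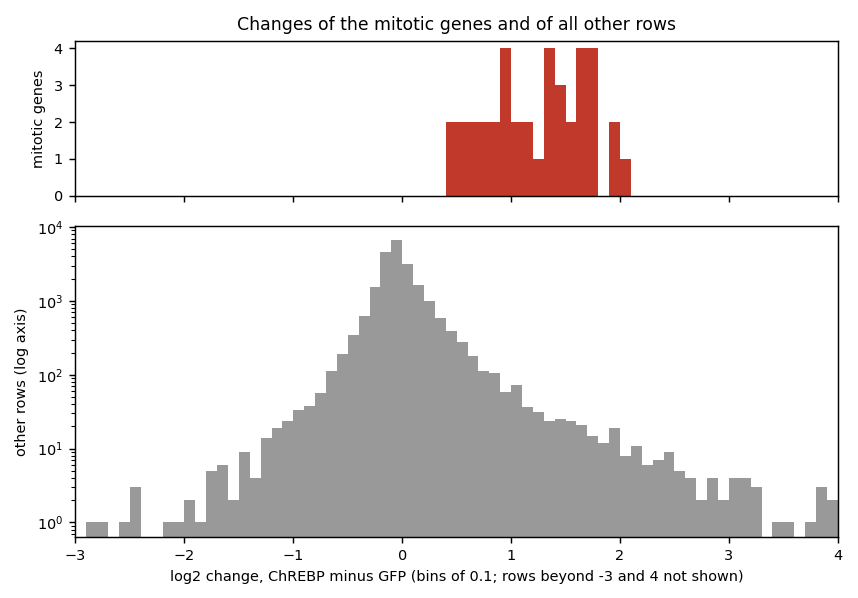
Number of genes per bin of log2 change (ChREBP minus GFP, limma fit) for the 39 mitotic genes (upper panel) and for the other rows (lower panel, log axis). Other rows with changes beyond the ends of the axis are not shown. The mitotic genes lie between 0.42 and 2.06, whereas the median of all rows is -0.05.

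Array medians lay between 5.99 and 6.09. Over all rows each liver correlated with the others of its group at a mean of 0.984 to 0.992 in ChREBP livers and 0.990 to 0.994 in GFP livers, with ChREBP livers 5 (0.984) and 4 (0.987) lowest. For 6 of the 39 genes in ChREBP livers and for 28 of them in GFP livers the group mean was below the median of all values (6.04), and in GFP livers Bub1, Cep55 and Foxm1 were below the 25th percentile (4.76). The level of ChREBP itself and the markers of hepatocytes and of other cells of the liver were not analysed here, since rows other than the 39 could not be named.

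**Figure D2:**
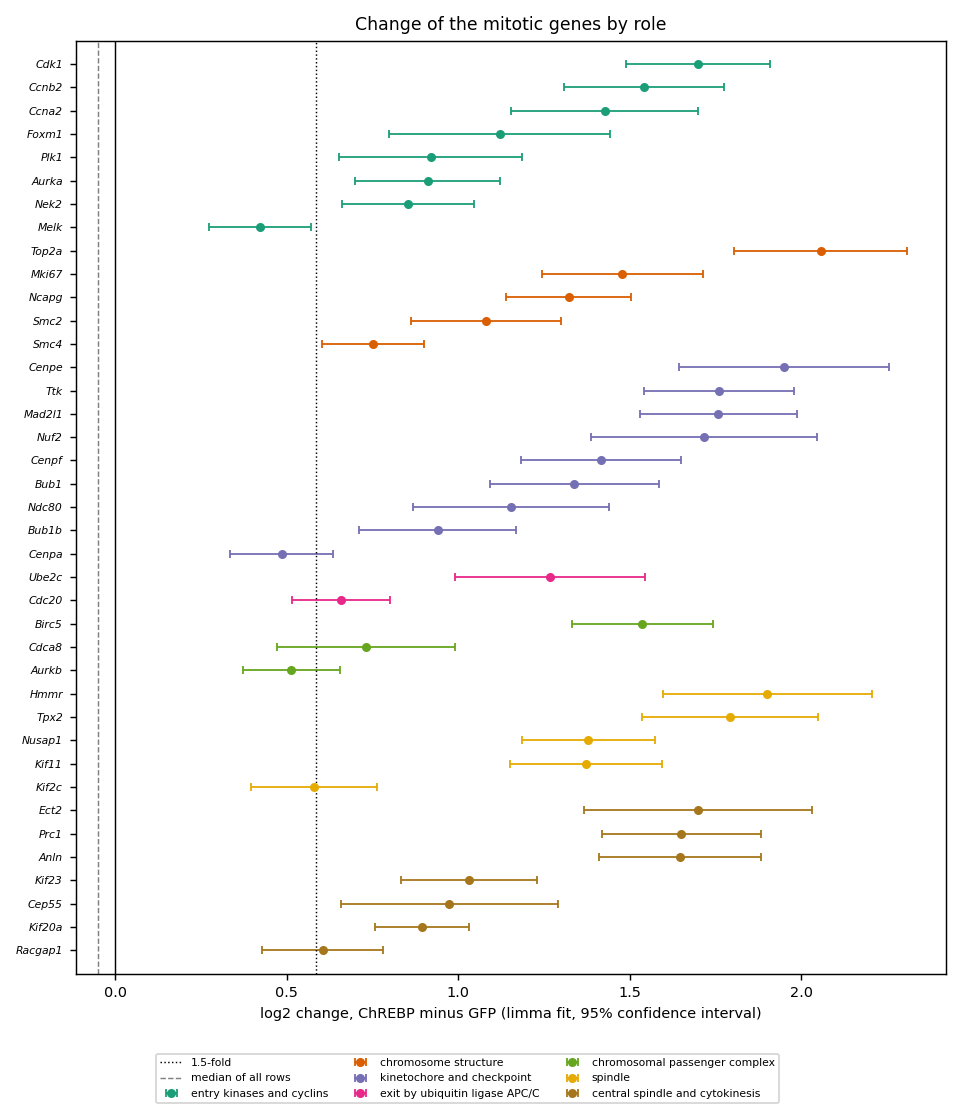
Log2 change of the 39 genes (ChREBP minus GFP; points, limma estimates; bars, 95% confidence intervals; colours, roles). All 39 intervals lie above 0, and the estimates of Melk, Cenpa, Aurkb and Kif2c lie below the dotted line of 1.5-fold.

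The kinases and cyclins of mitotic entry, grouped with the transcription factor Foxm1, rose in 8 of 8 cases, with a median change of 1.02. Cdk1 (ENSMUSG00000019942_at), the kinase that drives entry into mitosis, ranged from 7.79 to 8.31 (median 8.07) in ChREBP livers and from 6.02 to 6.59 (median 6.38) in GFP livers. Its lowest ChREBP liver thus lay well above its highest GFP liver, and the change was 1.70 (SE 0.10, 3.24-fold, limma adjusted p = 4.45e-08). Ccna2 (ENSMUSG00000027715_at), the cyclin of S phase and early mitosis, ranged from 6.85 to 7.62 (median 7.41) in ChREBP livers and from 5.71 to 6.20 (median 5.91) in GFP livers, a change of 1.43 (SE 0.13, limma adjusted p = 2.37e-06). Ccnb2, a B-type cyclin that activates Cdk1, averaged 8.35 ± 0.21 in ChREBP and 6.81 ± 0.20 in GFP livers (SD, n = 6 each), a change of 1.54. The 3 genes of the Cdk1 kinase complex measured here rose between 2.69-fold and 3.24-fold, more than the 5 others of this class.

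Plk1 (ENSMUSG00000030867_at), the polo-like kinase of spindle poles and kinetochores, ranged from 6.12 to 6.53 (median 6.33) in ChREBP livers and from 5.01 to 5.73 (median 5.44) in GFP livers, a change of 0.92 (SE 0.12, limma adjusted p = 9.24e-05). It varied more in GFP livers (SD 0.29) than in ChREBP livers (SD 0.16). Foxm1 (ENSMUSG00000001517_at), a transcription factor that activates late cell cycle genes, ranged from 5.37 to 6.37 (median 5.76) in ChREBP livers and from 4.32 to 4.91 (median 4.76) in GFP livers. Its change was 1.12 (SE 0.15, 2.18-fold, limma adjusted p = 8.82e-05), with the highest value in ChREBP liver 3 and the lowest of the ChREBP group in liver 4. Aurka, a kinase of the centrosome and spindle pole, rose by 0.91 and Nek2, a kinase that separates centrosomes, by 0.85. Melk (ENSMUSG00000035683_at), a kinase expressed in dividing cells, rose least of all 39 genes. It ranged from 5.31 to 5.69 (median 5.47) in ChREBP livers and from 4.90 to 5.22 (median 5.09) in GFP livers, and the gap between the groups was 0.09 (change 0.42, SE 0.07, limma adjusted p = 0.00045).

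**Figure D3:**
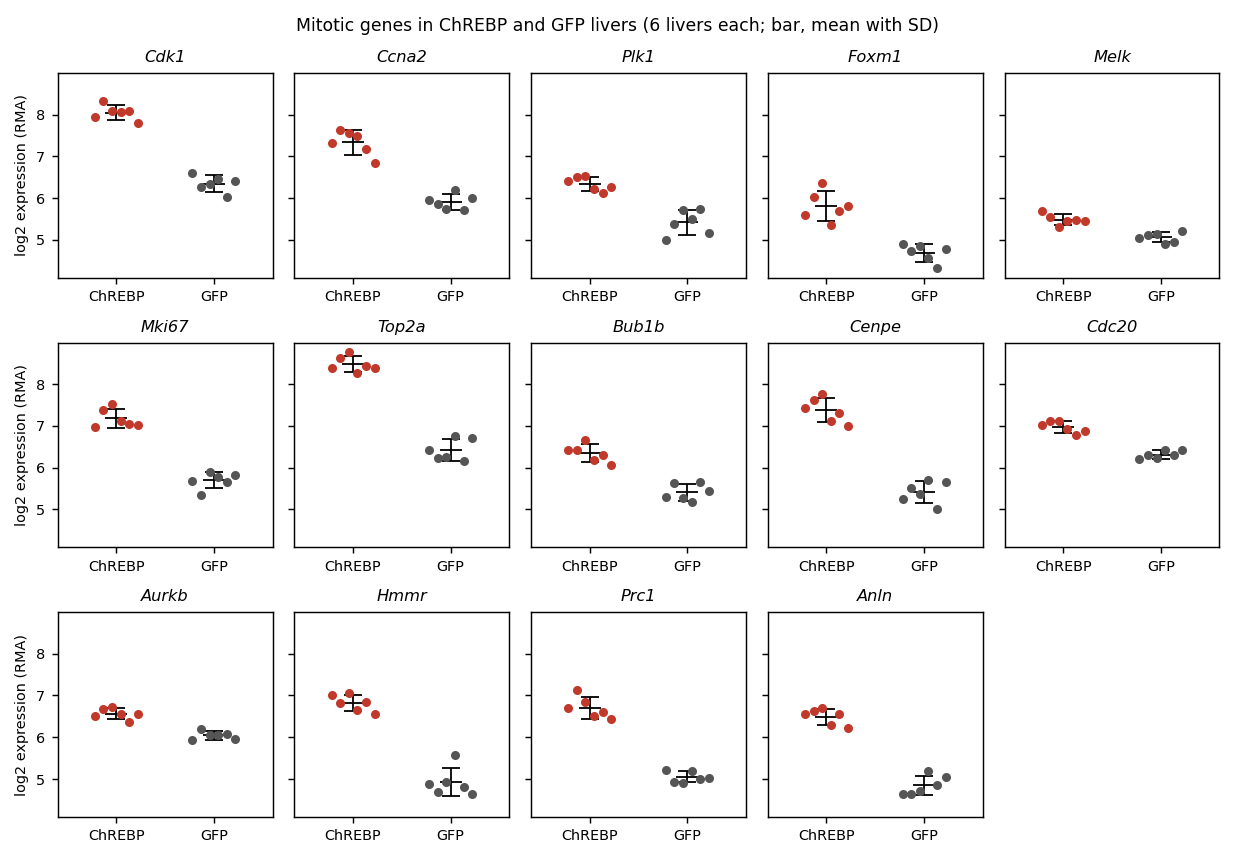
Log2 expression of 14 of the genes in the 6 ChREBP livers (left, red) and the 6 GFP livers (right, grey), with 1 point per liver and bars for the mean and SD. In each panel all ChREBP livers lie above all GFP livers, with the widest gap for Top2a (1.51) and the narrowest for Melk (0.09); heights of different genes are not comparable.

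Genes that shape mitotic chromosomes rose in 5 of 5 cases. Top2a (ENSMUSG00000020914_at), the topoisomerase that untangles sister chromatids, had the largest change of the set. It ranged from 8.27 to 8.76 (median 8.41) in ChREBP livers and from 6.15 to 6.77 (median 6.35) in GFP livers. The groups were 1.51 apart at their nearest, the widest gap among the 39 genes, and the change was 2.06 (SE 0.12, 4.16-fold, limma adjusted p = 4.01e-08). Mki67 (ENSMUSG00000031004_at), which encodes the proliferation antigen Ki67 of the chromosome surface, ranged from 6.97 to 7.53 (median 7.08) in ChREBP livers and from 5.36 to 5.89 (median 5.73) in GFP livers, a change of 1.48 (SE 0.11, 2.79-fold, limma adjusted p = 4.46e-07). Condensin, the ring complex that compacts chromosomes, was represented by Ncapg (1.32), Smc2 (1.08) and Smc4 (0.75), all of them higher. Smc4 averaged 9.46 ± 0.13 in ChREBP and 8.71 ± 0.11 in GFP livers (SD, n = 6 each).

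Kinetochore and checkpoint genes rose in 9 of 9 cases, with a median change of 1.42. Cenpe (ENSMUSG00000045328_at), the kinetochore motor that brings chromosomes to the spindle equator, ranged from 7.00 to 7.75 (median 7.37) in ChREBP livers and from 5.01 to 5.70 (median 5.44) in GFP livers, a change of 1.95 (SE 0.14, 3.86-fold, limma adjusted p = 4.10e-07). Only Top2a changed more. The checkpoint kinase Ttk (1.76), the checkpoint protein Mad2l1 (1.76) and Nuf2 (1.72), a subunit of the microtubule-binding NDC80 complex, followed at more than 3-fold. Mad2l1 averaged 9.33 ± 0.20 in ChREBP and 7.58 ± 0.20 in GFP livers (SD, n = 6 each). Cenpf, a large kinetochore protein, rose by 1.42, the checkpoint kinase Bub1 by 1.34 and Ndc80, the partner of Nuf2, by 1.15. Bub1b (ENSMUSG00000040084_at), which encodes the checkpoint protein BubR1, ranged from 6.07 to 6.67 (median 6.37) in ChREBP livers and from 5.17 to 5.65 (median 5.37) in GFP livers, a change of 0.94 (SE 0.11, limma adjusted p = 2.13e-05). Cenpa, the histone H3 variant that marks centromeres, rose least of this class, by 0.48 (SE 0.07).

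The pair of genes that serve the APC/C rose as well. Cdc20 (ENSMUSG00000006398_at), the activator that the checkpoint holds back, ranged from 6.79 to 7.12 (median 6.98) in ChREBP livers and from 6.20 to 6.43 (median 6.30) in GFP livers, a change of 0.66 (SE 0.07, 1.58-fold, limma adjusted p = 7.56e-06). Ube2c, the ubiquitin-conjugating enzyme of the APC/C, averaged 7.20 ± 0.23 in ChREBP and 5.93 ± 0.26 in GFP livers (SD, n = 6 each), a change of 1.27. In the chromosomal passenger complex, which corrects faulty attachments, 3 of 3 measured genes rose by different amounts. Aurkb (ENSMUSG00000020897_at), its kinase, ranged from 6.35 to 6.73 (median 6.55) in ChREBP livers and from 5.93 to 6.21 (median 6.05) in GFP livers, a change of 0.51 (SE 0.07, 1.43-fold, limma adjusted p = 6.41e-05). Cdca8, which encodes borealin, changed by 0.73 and Birc5, which encodes survivin, by 1.54.

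Spindle genes rose in 5 of 5 cases. Hmmr (ENSMUSG00000020330_at), a microtubule-associated protein of the spindle pole, ranged from 6.55 to 7.06 (median 6.84) in ChREBP livers and from 4.64 to 5.57 (median 4.85) in GFP livers, a change of 1.90 (SE 0.14, 3.73-fold, limma adjusted p = 5.18e-07). GFP liver 4 was the high value, and the other GFP livers did not exceed 4.92. Tpx2, a spindle assembly factor that activates Aurka, changed by 1.79, Nusap1, which bundles microtubules, by 1.38 and Kif11, the motor that pushes spindle poles apart, by 1.37. Kif2c, a kinesin that shortens microtubules, changed by 0.58 (SE 0.08), or 1.49-fold.

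Genes of the central spindle and of cytokinesis rose in 7 of 7 cases. Prc1 (ENSMUSG00000038943_at), which bundles the microtubules of the central spindle, ranged from 6.43 to 7.14 (median 6.64) in ChREBP livers and from 4.90 to 5.22 (median 5.02) in GFP livers, a change of 1.65 (SE 0.11, 3.14-fold, limma adjusted p = 1.54e-07). Anln (ENSMUSG00000036777_at), which encodes the ring protein anillin, ranged from 6.22 to 6.70 (median 6.56) in ChREBP livers and from 4.64 to 5.18 (median 4.78) in GFP livers, a change of 1.65 (SE 0.11, 3.13-fold, limma adjusted p = 1.79e-07). Both genes kept a gap of more than 1 between the groups. Ect2, the exchange factor that activates RhoA at the division plane, changed by 1.70 (SE 0.15). Its GFP livers spread from 5.52 to 6.35, whereas its ChREBP livers lay between 7.39 and 7.78. Kif23 (1.03) and Racgap1 (0.60), which form the centralspindlin complex, Cep55 (0.97), which acts in the final cut, and the kinesin Kif20a (0.89) rose less.

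The rises of genes whose products work together were set side by side within livers. For 13 pairs of complex partners or related kinases the log2 ratio of both genes was taken in each liver, with the gene of the larger change on top, so that each difference between the groups is above 0 by construction. The pairs were chosen after the changes were seen, and the ratios are given as a description without a test. The ratio of Mad2l1 over Cdc20, both in the mitotic checkpoint complex, was 2.36 ± 0.22 in ChREBP livers and 1.26 ± 0.22 in GFP livers (SD, n = 6 each), a difference of 1.10. That of Birc5 over Aurkb, both in the passenger complex, was 1.68 ± 0.13 in ChREBP livers and 0.66 ± 0.30 in GFP livers, a difference of 1.02. That of Tpx2 over Aurka, an activator and its kinase, was -0.52 ± 0.24 in ChREBP livers and -1.40 ± 0.14 in GFP livers, a difference of 0.88. For these 3 pairs the livers of the groups did not overlap. The share of such pairs among all pairs of rows was not taken, and pairs with unlike changes were among those chosen. The count of 3 therefore cannot be weighed. In the 10 other pairs they overlapped, with differences from 0.16 for Cdk1 over Ccnb2 to 0.56 for Nuf2 over Ndc80. Bub1 over Bub1b differed by 0.40, but Bub1 averaged 4.63 ± 0.07 in GFP livers, below the 25th percentile of all values (4.76). Whether the array probes of both genes of a pair respond alike was not tested.

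**Figure D4:**
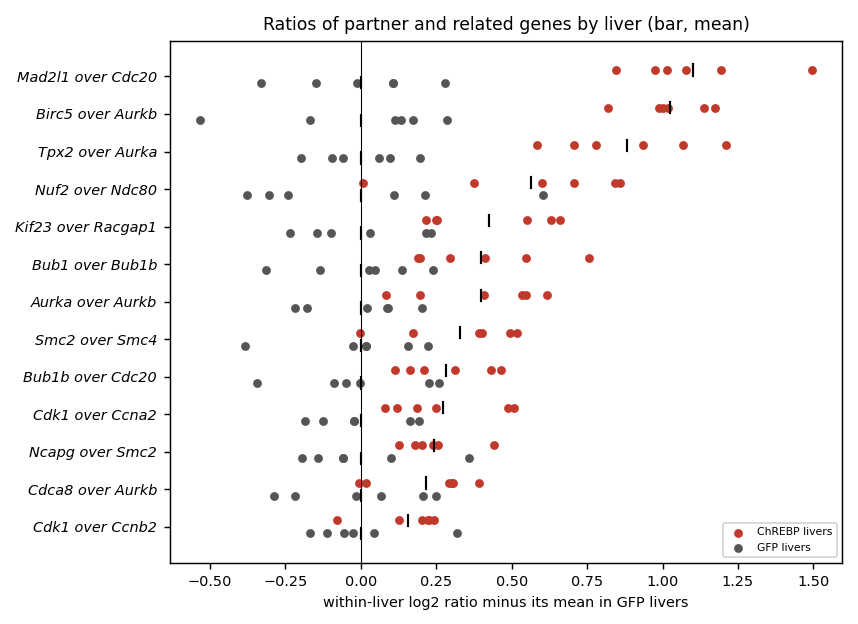
Within-liver log2 ratio of 13 pairs of genes, shown as the difference from its mean in GFP livers (red, 6 ChREBP livers; grey, 6 GFP livers; bars, means). The livers of the groups are apart for Mad2l1 over Cdc20, Birc5 over Aurkb and Tpx2 over Aurka, with mean differences of 1.10, 1.02 and 0.88, and overlap for the other pairs. The pairs were chosen after the changes were seen.

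Livers of 1 group also differed in how high they stood across the genes. The mean over the 39 genes was 7.04, 7.23, 7.18, 6.93, 6.96 and 6.84 in ChREBP livers 1 to 6, against 5.77, 5.75, 5.80, 5.91, 5.70 and 5.82 in GFP livers 1 to 6. All ChREBP means thus exceeded all GFP means. Within the ChREBP group, liver 2 was the highest for 18 genes and liver 3 for 16, while liver 6 was the lowest for 22 and the highest for 0. Relative to the mean of GFP livers the average difference was 1.44 (2.72-fold) in ChREBP liver 2 and 1.05 (2.07-fold) in ChREBP liver 6. Among GFP livers, liver 4 was the highest for 17 of the genes. In ChREBP livers 4 and 5, which correlated least with their group over all rows, the means over the 39 genes lay inside the range of the group. Without these livers 39 of 39 genes were still higher, against 11.9% of all rows, 36 of them by at least 1.5-fold, and the median change was 1.37.

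**Figure D5:**
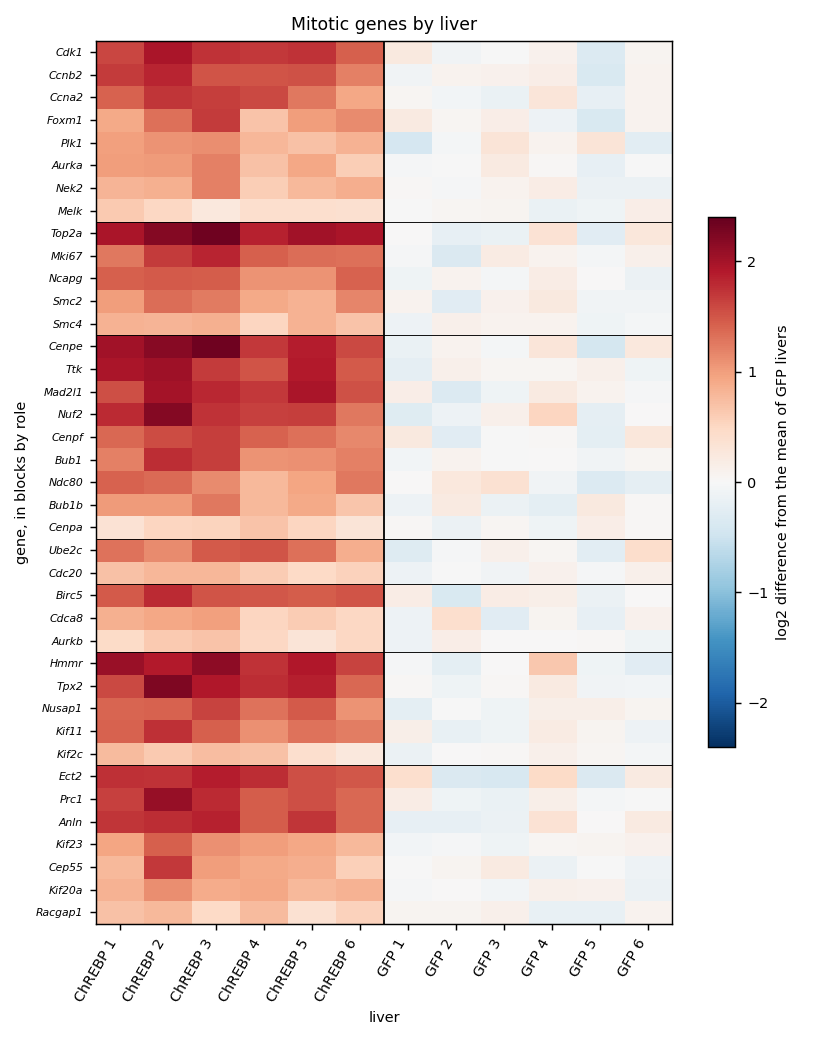
Log2 difference of each gene in each liver from the mean of GFP livers (red, higher; blue, lower), with genes in blocks by role and ChREBP livers left of GFP livers. The average column difference is largest in ChREBP liver 2 (1.44) and smallest among ChREBP livers in liver 6 (1.05).

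Other genes of late cell cycle were taken from the G2/M markers of the cyclone classifier, defined in mouse embryonic stem cells and keyed by Ensembl identifiers, without those described above. Among 93 such markers 42 rose and 11 fell in ChREBP livers, 40 passed the test in neither direction, where 12.2% of all rows were higher and 14.0% lower. At least 1.5-fold rises were found for 24 of the markers (25.8%), against 3.73% of all rows. Their median change was 0.13, against 1.32 for the 39 genes. The mean over the 93 markers was 6.85 ± 0.05 in ChREBP and 6.54 ± 0.03 in GFP livers (SD, n = 6 each). In the ChREBP group it was highest in liver 2 (6.93) and lowest in liver 6 (6.78), as for the 39 genes.

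The promoters of the genes were read for elements of late cell cycle control. The genes were listed by their role in mitosis, and all 39 rose. Shares above those of all genes therefore describe the list and say nothing on the response to ChREBP. RefSeq promoter windows of build GRCm38.p6, from 250 bases before to 50 bases after the start, were found for 33 of the 39 genes. The cell cycle genes homology region (CHR), bound by the DREAM and MuvB complexes, was searched on both strands as the letters TTTGAA and, as a variant, the letters TTCGAA, and the CCAAT box, bound by NF-Y, as CCAAT on both strands. A CHR stood in the window of 26 of the 33 genes (78.8%), against 21.7% of all 27025 genes with a window. In the 250 bases before the start alone it was found in 14 of 33 (42.4%), against 19.6%. A CCAAT box stood in those 250 bases in 24 of 33 (72.7%), against 37.5%. Both motifs stood in those 250 bases in 12 of 33 (36.4%), against 7.00%, and in the whole window of 22 of 33 (66.7%), against 8.61%. The E-box CACGTG was found before the start in 2 of 33 (6.06%), Anln and Ttk, against 6.86%. The carbohydrate response element (ChoRE), a pair of E-box-like sites to which ChREBP binds, was found in 0 of 33, against 8 of 27025 genes (0.0296%). The pattern searched was so rare among all genes that hardly any match could be found in 33. The 0 therefore cannot decide whether these promoters lack sites for ChREBP. These matches are descriptions of letters in a window and no evidence of binding.

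The 250 bases before the start are shown for the 6 genes with the largest rise among those with a CHR there, 5′ to 3′ on the strand of the gene. Capitals mark matches to the CHR and to the CCAAT box on either strand. They come from chr11:99024190-99024439 (Top2a, minus strand), chr3:27153879-27154128 (Ect2, minus strand), chr10:69352913-69353162 (Cdk1, minus strand), chr7:80294226-80294475 (Prc1, plus strand), chr9:70421555-70421804 (Ccnb2, minus strand) and chr7:135716380-135716629 (Mki67, minus strand).
Top2a: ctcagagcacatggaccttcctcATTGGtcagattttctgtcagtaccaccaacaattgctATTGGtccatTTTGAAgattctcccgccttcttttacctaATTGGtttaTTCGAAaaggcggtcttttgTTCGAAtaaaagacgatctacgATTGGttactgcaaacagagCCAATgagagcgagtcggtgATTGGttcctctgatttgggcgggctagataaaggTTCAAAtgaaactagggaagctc
Ect2: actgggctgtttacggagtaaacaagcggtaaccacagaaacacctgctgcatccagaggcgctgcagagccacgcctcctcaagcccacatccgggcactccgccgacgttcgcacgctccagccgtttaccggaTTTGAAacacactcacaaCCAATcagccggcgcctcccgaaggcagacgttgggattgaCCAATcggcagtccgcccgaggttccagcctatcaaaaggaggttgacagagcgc
Cdk1: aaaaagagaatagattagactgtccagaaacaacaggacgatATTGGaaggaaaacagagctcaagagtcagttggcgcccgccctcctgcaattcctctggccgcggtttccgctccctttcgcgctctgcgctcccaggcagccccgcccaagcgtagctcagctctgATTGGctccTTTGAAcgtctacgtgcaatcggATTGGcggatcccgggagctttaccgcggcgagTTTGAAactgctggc
Prc1: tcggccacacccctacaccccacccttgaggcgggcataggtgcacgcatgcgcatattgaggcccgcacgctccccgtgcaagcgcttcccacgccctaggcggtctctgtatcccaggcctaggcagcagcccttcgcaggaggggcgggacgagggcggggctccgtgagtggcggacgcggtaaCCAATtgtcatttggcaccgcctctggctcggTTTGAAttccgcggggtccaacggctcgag
Ccnb2: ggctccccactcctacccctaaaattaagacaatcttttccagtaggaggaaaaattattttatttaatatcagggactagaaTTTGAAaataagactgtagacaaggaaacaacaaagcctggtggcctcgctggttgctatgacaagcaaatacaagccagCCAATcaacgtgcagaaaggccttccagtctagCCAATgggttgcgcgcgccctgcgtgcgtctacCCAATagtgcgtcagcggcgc
Mki67: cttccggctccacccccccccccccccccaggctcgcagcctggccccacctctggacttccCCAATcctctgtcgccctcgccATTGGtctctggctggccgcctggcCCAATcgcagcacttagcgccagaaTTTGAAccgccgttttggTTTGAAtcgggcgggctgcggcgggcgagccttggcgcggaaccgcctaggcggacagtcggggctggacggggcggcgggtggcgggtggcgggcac
Top2a held 4 CHR matches and 6 CCAAT boxes, the first base of its CHR nearest to the start lying 23 bases before it. Cdk1 held 2 CHR matches, at 71 and 15 bases before the start, and 3 CCAAT boxes. Mki67 held 2 CHR matches, at 116 and 98 bases, and Prc1 1, at 30 bases, after its only CCAAT box. In Ect2 and Ccnb2 the only CHR lay farther from the start, at 114 and 167 bases. There it stood before all of their CCAAT boxes (2 and 3). These 6 were chosen for their rise, and genes with and without a CHR before the start covered much the same range of rises. The median change was 1.35 in the 14 genes with one (1.49-fold to 4.16-fold) and 1.34 in the 19 without (1.34-fold to 3.86-fold). Cenpe (3.86-fold) and Hmmr (3.73-fold) had none there, while Kif2c (1.49-fold) and Cdc20 (1.58-fold) had one. The whole window held a CHR in 26 of the 33 genes, so many of the 19 hold one at or after the start. The comparison therefore does not set genes with a CHR against genes without any.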

How the data were processed

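Total RNA of 12 livers was amplified from 50 ng, labelled with biotin and hybridised to Affymetrix Gene ST arrays, a mouse 1.0 design by the labels and a human 2.0 design by the methods. The Ensembl identifiers of the genes described here are mouse ones, which goes with the labels. The authors deposited log2 values made by RMA, which corrects the background, equalises the distributions of the arrays and summarises the probes of a gene, so shifts common to whole arrays are lost. RMA and Partek are named in the submitters' notes, with versions not given in the sources used here. The table held 22309 rows and 12 columns, all used, and no row was filtered.

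Differences (ChREBP minus GFP, two-sided) were tested with limma 3.58.1 in R 4.3.3 (lmFit, eBayes) with Benjamini-Hochberg adjustment over all rows, at a threshold of 0.05, and a fold of 1.5 was used in addition. Fitting was tested on simulated data. Ratios of gene pairs were not tested. The genes, lists and tests were chosen with earlier results of these data known. All 39 genes could be named, and the lowest, median and highest livers were given for genes with central roles, the 3 with the largest change and the one with the smallest. G2/M markers (scran 1.30.0) were those of at least 10 cyclone pairs that were the higher gene in 90% of these or more. Planned lists keyed by symbol were not used, because 0 of 49997 genes of the RefSeq table carried an Ensembl identifier. The 6 livers per group limit the precision. Alternatives were other scalings, filters, settings of eBayes, the methods' test (analysis of variance of each gene, unadjusted and adjusted), a block by replicate number and left-out livers. The pairs of genes and the alternatives for them were chosen after their values were seen.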

Additional observations from a re-analysis of the deposited data

Results flagged for a closer look

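In sets of 6 livers a liver was noted when its gap to the next liver took up more of the range of its group than Dixon's critical value. Of 80 such sets, 39 genes and their mean in each of the 2 groups, 2 held such a liver, where about 4 are expected by chance. Birc5, the gene of survivin, was at 8.49 in ChREBP liver 2, with the next value in that group at 8.20. Without that liver its change was 1.48 (SE 0.09, limma adjusted p = 2.90e-07), against 1.54 with it. Hmmr, the spindle pole protein, was at 5.57 in GFP liver 4, with the next value in that group at 4.92. Without that liver its change was 2.03 (SE 0.09, limma adjusted p = 3.49e-08), against 1.90 with it.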

How the results depend on the processing

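Under 24 alternatives all 921 values of single genes kept their direction and a p under 0.05, the largest being 0.00449. These p-values were adjusted, except in the methods' test without adjustment. The count of higher genes was 39 in every setting except the filter at 50%. Where it was 39, the share of all tested rows that were higher was 10.7% to 16.4%. When the 50% of rows with the lowest mean were dropped, 24 of the 39 genes were still tested. All 24 were higher, against 21.5% of all tested rows, 22 of them by at least 1.5-fold. That mean was taken over the livers of both groups, so high values in ChREBP livers helped genes to pass. In GFP livers 28 of the 39 genes had a mean below the median of all values (6.04). The filter therefore cannot decide whether the rises depend on the level of a gene. Across the other settings the count at 1.5-fold was 34 to 36, and it was 34 to 36 without each liver in turn. The median change ranged from 1.27 to 1.42 over all alternatives, and from 1.27 to 1.37 without each liver in turn. Scaling did not change a direction, with a median of 1.29 after each array was centred, 1.29 after a second quantile normalization and 1.34 after cyclic loess. With the replicate number as a block, 39 genes were higher, against 10.9% of all rows, 35 of them by at least 1.5-fold, with a median change of 1.32. The numbers did not pair the livers, as same-numbered livers correlated in their deviations between -0.06 and 0.24, and 1 of 6 ChREBP livers correlated best with its own number. Over 15 alternatives chosen after seeing the data, the differences in the ratios of gene pairs moved by less than the larger SD of the groups, from 1.01 to 1.16 for Mad2l1 over Cdc20, 0.92 to 1.08 for Birc5 over Aurkb and 0.81 to 0.94 for Tpx2 over Aurka.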

Other observations

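By a rule set for likeness, the 22270 other rows were ordered by the correlation of their deviations from the group means, over 12 livers, with the mean deviation of the 39 genes. The 5 most alike rows had correlations from 0.892 to 0.919, and 1 of them was a G2/M marker of cyclone. ENSMUSG00000062014_at rose by 0.55 (limma adjusted p = 2.94e-05), and the most alike row, ENSMUSG00000021114_at, had a change of 0.14 (limma adjusted p = 0.149). These 5 are the highest of 22270 correlations, which ran down to -0.871 with a median of 0.01. The 39 genes themselves correlated with the mean of the others of the set at -0.07 to 0.85 (median 0.56). All rows come from the same 12 arrays, so the likeness is a description of these livers. The table does not pair these identifiers with names.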
